A study of Mus musculus with 4 samples.

Results

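The genes examined here encode the enzymes and binding proteins that cut a nascent mRNA at its 3′ end and add the poly(A) tail, together with the testis paralogs of a pair of them. They were taken by gene symbol from a list of 10 names, and all 10 were found among the 53700 genes of the table: Cstf1, Cstf2, Cstf2t, Cstf3, Cpsf1, Fip1l1, Nudt21, Cpsf6, Papola and Papolb. All 10 passed the filter on low counts that left 17766 genes for testing. The mRNA came from primary spermatocytes of 8-wk-old C57BL/6 mice, sorted from testis cells by flow cytometry after Hoechst staining. The control mice were wild type (replicates 2 and 3), and the circSRY KO mice (labelled circSry KO, replicates 1 and 2) carried a germline deletion of the splice acceptor that precedes the coding part of Sry, without which the circular RNA is not made. Every comparison rests on 2 libraries against 2. The labels do not say that these came from separate mice, although a legend of the study does, and the p-values measure only the spread between these libraries.

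In mammalian cells the CPSF complex reads the hexamer AAUAAA near the end of the transcript, the CstF complex reads a U- or GU-rich stretch downstream of the cut, and the CFIm complex binds UGUA upstream of it and influences which of several sites is used. A poly(A) polymerase then extends the cut end. Male germ cells are known for a modified set of these factors. Cstf2, which encodes the RNA-binding subunit of CstF, lies on the X chromosome, which is silenced in pachytene spermatocytes, and its autosomal retrogene copy Cstf2t is expressed in these cells. Papolb, a retrogene copy of the poly(A) polymerase gene Papola, encodes a largely cytoplasmic enzyme of round spermatids. Mouse males without either of these paralogs are infertile.

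The hexamer that these proteins read was looked for in the mRNAs of the genes themselves, since a gene counted from poly(A)-selected RNA has to carry a processed end. The last 50 bases of the main annotated transcript (Ensembl canonical, GENCODE M39 on GRCm39) were searched on the transcript strand for AATAAA and its common variant ATTAAA. Of the 10 genes, 7 had AATAAA as the hexamer nearest the end, Nudt21 had ATTAAA, and Cstf2t and Cpsf1 had neither. Of 21593 canonical coding transcripts, 57.4% held AATAAA, 16.5% held ATTAAA and 70.7% held at least 1 of them in this window. The sites of Cstf2 (chrX:132987703-132987732, + strand), of Papola (chr12:105805173-105805202, + strand), of Papolb (chr5:142511600-142511629, - strand) and of Nudt21 (chr8:94741848-94741874, - strand) are shown to compare the parent and testis genes and the variant signal, with the hexamer in capitals.
Cstf2: ccccccccAATAAAaaccaattcatgtgtt
Papola: gaaaacacAATAAAaaaaaaaacagcacaa
Papolb: acaataaaAATAAAtgccaaacaacctgga
Nudt21: atgcttcgATTAAAggtgtaagccacc
In Papolb a second copy of the hexamer lies directly before the one in capitals. A match of these letters does not show that a site was used, and the absence of both says only that they are not in this window.

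The expected counts summed to between 8045148 and 8839461 per library. Replicates differed by more than counting noise in both groups (chi-square per gene 12.6 in control and 39.9 in circSRY KO). The sorted cells expressed the germ cell genes Ddx4, Dazl, Tex101 and Sycp3, of which 3 of 4 were called lower in circSRY KO, with a summed expression of 1326 to 1831 TPM in control and 463 to 502 TPM in circSRY KO. Many markers of other stages and cell types also moved with the groups. The calls in this paragraph are by the edgeR test described below. They are to be read against the 15.0% of all genes tested that were called lower and the 20.0% called higher. Of 8 leptotene and zygotene markers 6 were lower (736 to 917 TPM summed in control, 363 to 450 in circSRY KO), and of 8 pachytene and diplotene markers 4 were lower (2579 to 2698 and 1145 to 1157 TPM). All 8 round spermatid markers were higher (547 to 712 and 1585 to 2180 TPM), as were all 9 elongating spermatid markers (7803 to 8235 and 41536 to 51323 TPM), all 8 leukocyte markers (19.6 to 23.6 and 291 to 399 TPM) and all 8 stromal markers (52.9 to 77.3 and 304 to 382 TPM), while 6 of 7 tested Sertoli cell markers were higher (62.4 to 91.3 and 163 to 377 TPM, all 8 summed) and all 5 Leydig cell markers were lower (1563 to 1851 and 605 to 669 TPM). Of 6 spermatogonial markers 2 were higher, of 3 erythroid markers 1 was higher, and none of 4 endothelial markers was called. No marker of these lists had a count of 0 in every library of a group. Their part in the results below was not tested, and in such bulk samples fewer cells of a type cannot be told apart from less RNA per cell.

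Of the 10 factor genes, 5 were lower in the circSRY KO libraries: Cstf2t and Cstf3 of CstF, Cpsf1 and Fip1l1 of CPSF, and Cpsf6 of CFIm. The other 5, Cstf1, Cstf2, Nudt21, Papola and Papolb, did not pass the test. Calls needed an adjusted p under 0.05 and a change of 1 or more on the log2 scale by edgeR's quasi-likelihood test, and 15.0% of all genes tested were called lower and 20.0% higher. No member was called higher, either by this test (1 member, Papolb, was higher at an unadjusted p under 0.05) or by DESeq2. With DESeq2 Papolb passed the adjusted p and fell short of the fold threshold only (log2 fold change 0.85, adjusted p = 0.0245). The same held for edgeR scaled by library totals alone (0.90, adjusted p = 0.0334). The median log2 fold change was -0.63 over the 10 genes and 0.07 over all genes tested. With an offset for transcript length these medians were -0.30 and 0.06. They were -0.42 and 0.28 with upper-quartile scaling, and -0.67 and 0.04 with DESeq2. By TPM, 6 of the 10 had both circSRY KO libraries below both control libraries and Papolb had both above, where 38.8% of all genes tested lay below and 29.5% above. With control replicate 2 left out, the log2 fold changes of the 5 lower genes ran from -1.33 (Fip1l1) to -0.99 (Cpsf6). The calls, which also depend on how many libraries are left, were lost without control replicate 2. Without it edgeR called 0 of the 10 lower (3 at an unadjusted p under 0.05) and 5.01% of all genes, against 3 of the 10 without control replicate 3 (9.64% of all genes), 5 without circSRY KO replicate 1 (16.4%) and 5 without circSRY KO replicate 2 (18.1%).

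**Figure D1:**
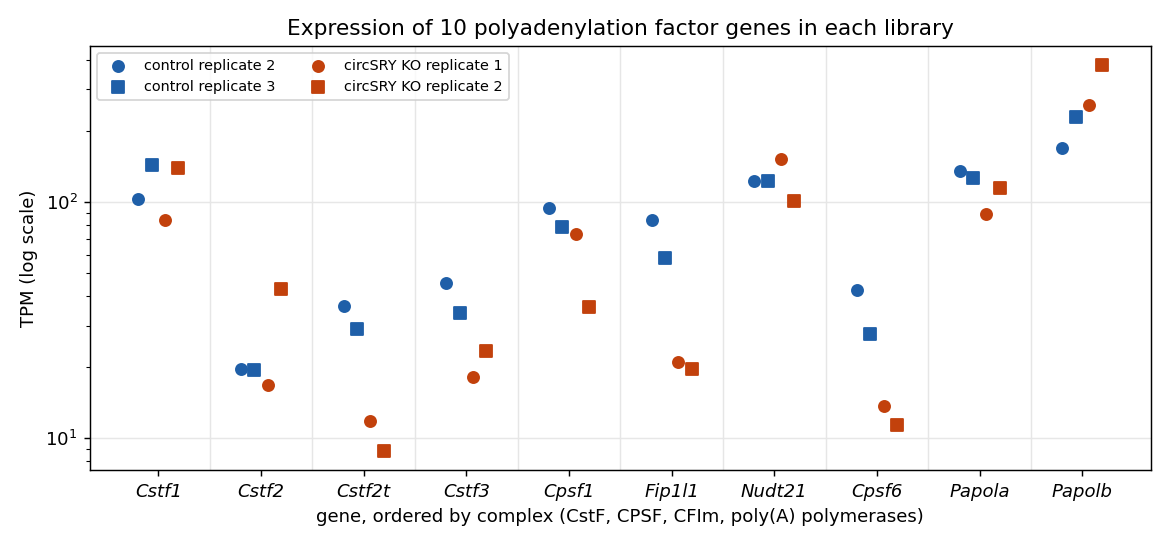
Expression in TPM (log axis) of the 10 factor genes in each of the 4 libraries, with control in blue and circSRY KO in orange, 1 point per library. Both circSRY KO points lie below both control points for Cstf2t, Cstf3, Cpsf1, Fip1l1, Cpsf6 and Papola, and above them for Papolb.

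Within CstF, the complex that binds downstream of the cut, Cstf2t and Cstf3 fell and Cstf1 and Cstf2 did not pass the test. Cstf2t (ENSMUSG00000053536), the germline form of the RNA-binding subunit, had 36.2 TPM in control replicate 2 and 29.0 TPM in control replicate 3, against 11.8 and 8.85 TPM in the circSRY KO libraries (replicates 1 and 2). The groups did not overlap, and the lowest control value was well above the highest circSRY KO value. Its expected counts of 747 and 654 in control went to 364 and 202, which gave a log2 fold change of -1.38 with a standard error of 0.328 (adjusted p = 0.00483). The gene has 1 exon on chromosome 19 of GRCm39 (31060237 to 31064469, + strand) and lies inside the span of Prkg1, which is on the other strand and shares no exon with it. Prkg1 went the other way, with 33.4 and 54.5 TPM in the control libraries against 187 and 150 TPM in the circSRY KO ones.

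Cstf2, the X-linked parent of Cstf2t, had 19.6 and 19.5 TPM in control. The circSRY KO values were 16.9 TPM for replicate 1 and 42.9 TPM for replicate 2, so that replicate 1 was slightly below control and replicate 2 well above it. The log2 fold change was 0.59 (standard error 0.315, adjusted p = 0.152). The gene (X chromosome, 132959848 to 132987733, + strand) was not among the 275 of 674 tested X-linked genes (40.8%) that were called higher. An exon of Nox1 on the other strand overlaps it, with 0.33 to 0.76 TPM in the 4 libraries.

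Cstf3, the scaffold subunit that holds the complex together, had 45.5 and 34.1 TPM in the control libraries against 18.2 and 23.4 TPM in the circSRY KO ones, with no overlap. Its log2 fold change was -1.15 (standard error 0.307, adjusted p = 0.00946). With an offset for transcript length it was -0.75 and was not called (adjusted p = 0.0945). Without control replicate 3 it was not called either (-1.35, adjusted p = 0.0517). Cstf1, the WD-repeat subunit, had 103 and 143 TPM in the control libraries against 84.2 and 139 TPM in the circSRY KO ones. The groups overlapped, and the spread within each was as large as the distance between their means. Its log2 fold change was 0.29 on counts (standard error 0.321, adjusted p = 0.494) and -0.16 with limma on log2(TPM + 1), so no direction can be given. Exons of Aurka on the other strand overlap Cstf1. The expected counts of Cstf1 were whole numbers in all libraries, so they held no reads split with another gene. How reads in the overlap were assigned was not analysed here.

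Of the CPSF genes, Fip1l1 had the largest fall among the 10 factors when all 4 libraries were fitted with edgeR. Fip1l1, which links CPSF to the poly(A) polymerase and binds U-rich RNA, had 84.2 and 57.8 TPM in the control libraries against 21.1 and 19.7 TPM in the circSRY KO ones. The circSRY KO libraries were close to each other and far below both control libraries. By edgeR the log2 fold change was -1.44 (standard error 0.313, adjusted p = 0.00278), or a level 0.368 times that of control, and it ranged from -1.77 to -1.23 over 12 alternative ways of processing. Lnx1, on the other strand, shares exon sequence with Fip1l1 and had 0.26 to 0.86 TPM in control and 2.67 to 3.63 TPM in circSRY KO.

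Cpsf1, the largest CPSF subunit and a scaffold of the complex, was counted 1453 and 1383 times in control libraries against 616 and 691 times in circSRY KO libraries. On counts the log2 fold change was -1.17 with a standard error of 0.309 (adjusted p = 0.00863). Scaled by length, the gene stood at 94.8 and 78.7 TPM in control but at 73.6 and 35.9 TPM in circSRY KO, so circSRY KO replicate 1 was only just below control. With the transcript length offset the log2 fold change was -0.41 (adjusted p = 0.45), and with limma on log2(TPM + 1) it was -0.73 (adjusted p = 0.125). Without control replicate 3 the gene was not called on counts (-1.26, adjusted p = 0.0746). With upper-quartile scaling of the counts it was -0.97, just short of the fold threshold. Exons of Adck5, on the other strand, overlap Cpsf1, and Adck5 had 37.5 and 44.5 TPM in the control libraries against 10.6 and 7.59 TPM in the circSRY KO ones.

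Of the CFIm genes, whose complex steers the choice between poly(A) sites, Cpsf6 was called and Nudt21 was not, and the difference between them was not tested. Cpsf6, which encodes its larger subunit, had 42.3 and 27.6 TPM in the control libraries against 13.7 and 11.4 TPM in the circSRY KO ones, without overlap. The log2 fold change was -1.26 (standard error 0.32, adjusted p = 0.00725), and -0.99 without control replicate 2 (adjusted p = 0.223, not called). Nudt21, which encodes the small subunit that binds UGUA, had 123 TPM in each control library and 152 and 101 TPM in circSRY KO. The circSRY KO libraries lay on opposite sides of control, and the log2 fold change was -0.10 (standard error 0.332, adjusted p = 0.839). The sign of this value changed with upper-quartile scaling (0.12), with the transcript length offset (0.27) and without circSRY KO replicate 2 (0.24). Nudt21 was the 1 member whose expected counts were not whole numbers, since some of its reads also fit another gene, and exons of Ogfod1 on the other strand overlap it (4.79 to 15.0 TPM in the 4 libraries).

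Of the poly(A) polymerase genes neither was called. Papolb had the highest TPM of the 10 genes in each of the 4 libraries. Papolb (ENSMUSG00000074817) had 170 and 229 TPM in the control libraries against 257 and 380 TPM in the circSRY KO ones. Both circSRY KO libraries were above both control libraries, by a margin smaller than the distance between the control libraries. Its expected counts of 3519 and 5164 in control compared with 7951 and 8700 in circSRY KO. The log2 fold change was 0.88 with a standard error of 0.357 (adjusted p = 0.063), and with upper-quartile scaling, which moves the median of all genes from 0.07 to 0.28, it was 1.09 and called higher (adjusted p = 0.0229). The gene has 1 exon on chromosome 5 (142511593 to 142515831, - strand) and lies within Radil on the same strand, without sharing an exon. Radil had 63.8 to 96.8 TPM in control and 9.54 to 20.9 TPM in circSRY KO. Papola, the broadly expressed nuclear enzyme, had 136 and 127 TPM in the control libraries against 88.8 and 115 TPM in the circSRY KO ones. The groups did not overlap by TPM, while the log2 fold change on counts was -0.11 (standard error 0.314, adjusted p = 0.804), and 0.09 with upper-quartile scaling.

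**Figure D2:**
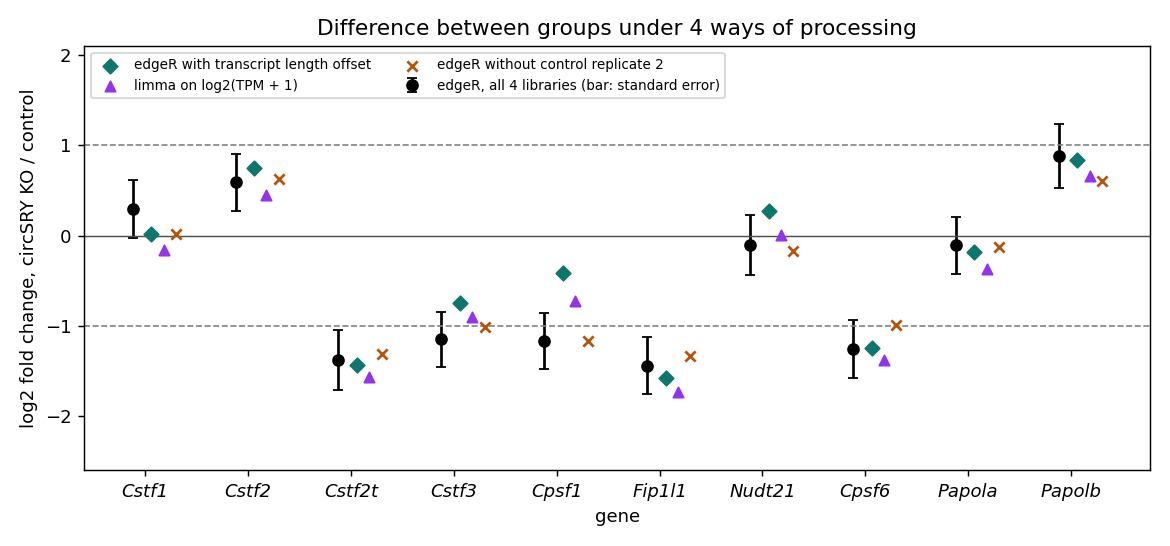
Log2 fold change between circSRY KO and control for the 10 genes with edgeR on all 4 libraries (black, bar: standard error), with a transcript length offset (green), with limma on log2(TPM + 1) (purple) and without control replicate 2 (brown), with dashed lines at a size of 1. Cstf2t, Fip1l1 and Cpsf6 stay near or beyond -1 under all 4, whereas Cpsf1 moves from -1.17 to -0.41 with the length offset.

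The balance between each testis paralog and its parent gene was read within each library, where both are on the same TPM scale. Of the summed Cstf2t and Cstf2 expression, Cstf2t was 64.9% in control replicate 2 and 59.8% in control replicate 3, against 41.1% in circSRY KO replicate 1 and 17.1% in replicate 2. The testis form was thus the larger part in both control libraries and the smaller part in both circSRY KO libraries. The sum itself was 55.7 and 48.5 TPM in the control libraries against 28.7 and 51.7 TPM in the circSRY KO ones, so circSRY KO replicate 1 had less of both and circSRY KO replicate 2 had about as much in total as control with a different composition. The log2 ratio of Cstf2t to Cstf2 was 0.73 ± 0.221 (SD, n = 2) in control and -1.40 ± 1.24 in circSRY KO, a difference of -2.13 (exact two-sided permutation p = 0.333, 0.333 after adjustment over the 2 pairs, which is the smallest p that 2 against 2 libraries allow). The difference was -3.01 without circSRY KO replicate 1 and -1.25 without circSRY KO replicate 2.

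Papolb had the larger part of the Papolb and Papola sum in all 4 libraries. It made up 55.6% and 64.4% of the summed expression of both genes in control and 74.3% and 76.8% in circSRY KO, again without overlap. The log2 ratio was 0.59 ± 0.374 (SD, n = 2) in control and 1.63 ± 0.134 in circSRY KO, a difference of 1.04 (exact two-sided permutation p = 0.333). The fitted level of Cstf2t in circSRY KO was 0.383 times that of control, and that of Papolb, which was not called, was 1.84 times that of control. The difference between the paralogs was not tested. The sequences of each paralog and its parent gene were compared in stretches of 50 bases, without regard to the read length. Whether reads of Prkg1 or Radil were counted for Cstf2t or Papolb was not tested. No stretch of 50 bases was shared between the annotated transcripts of Cstf2t and Cstf2, and 0.382% of the 50-base stretches of Papolb occurred in Papola.

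**Figure D3:**
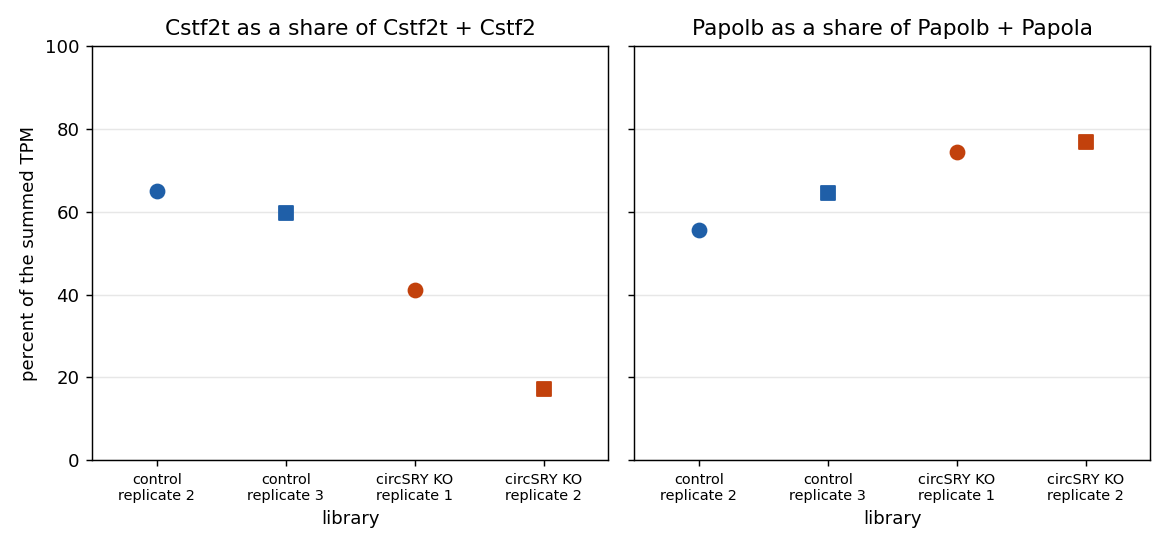
Share of the testis paralog in the summed TPM of paralog and parent gene, in percent, with 1 point per library (blue control, orange circSRY KO). The Cstf2t share is 59.8% to 64.9% in control and 17.1% to 41.1% in circSRY KO, and the Papolb share is 55.6% to 64.4% in control and 74.3% to 76.8% in circSRY KO.

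Genes with provisional names (Gm and a number, or ending in Rik) were left out of the following search. The genes most like each testis paralog in expression were found by distance between log2(TPM + 1) values over 4 libraries, among 14239 tested genes. For Cstf2t they were Men1 (distance 0.197), Vrk1 (0.243) and Oip5 (0.244). Men1, which encodes menin, had 35.1 and 28.7 TPM in the control libraries against 10.4 and 9.47 TPM in the circSRY KO ones. For Papolb they were Lrrc34 (distance 0.122), Desi1 (0.169) and Cd55b (0.183), and Lrrc34 had 157 and 224 TPM in the control libraries against 260 and 392 TPM in the circSRY KO ones. With 4 libraries such likeness is a description of these profiles only.

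Counts and TPM gave different pictures for several of the genes. TPM divides by the transcript length that RSEM assigned to a gene, an average over its transcripts weighted by their estimated abundance, and this length differed between libraries. It was recovered from each count and its FPKM. Cstf2t and Papolb, each with 1 annotated transcript, had nearly constant effective lengths of 3974 to 4010 and 3980 to 4015 bases. Cpsf1, with 52 annotated transcripts in GENCODE M39, had 2960 and 3099 bases in control, 1084 bases in circSRY KO replicate 1 and 3377 bases in circSRY KO replicate 2. The circSRY KO libraries thus differed 3.11-fold from each other, a difference of over 2-fold that 2.82% of all genes with a length showed between these libraries and 2.41% between the control libraries. Cstf3 and Nudt21 had shorter values in both circSRY KO libraries (1718 and 1871 bases against 2399 and 2456 in control for Cstf3, and 1233 and 1350 against 1685 and 1695 for Nudt21). Cpsf6 had 2450 and 2539 bases in control and 1887 and 3237 in circSRY KO, and Cstf1 had 2215 bases in circSRY KO replicate 1 against 1415 to 1514 in the other 3 libraries. These are gene-level averages, and which transcripts lie behind them was not analysed here.

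**Figure D4:**
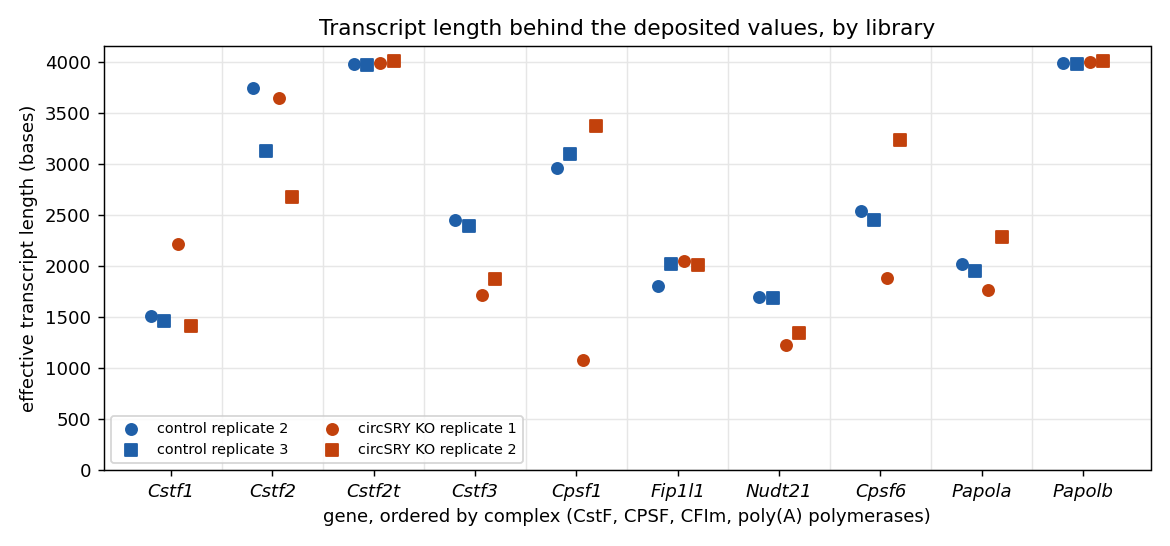
Effective transcript length in bases behind the deposited values of each gene, 1 point per library (blue control, orange circSRY KO). The lengths of the 1-exon genes Cstf2t and Papolb coincide in all libraries, while Cpsf1 ranges from 1084 to 3377 bases.

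The wider set of 64 genes of 3′ end processing, transcription termination and poly(A) tail metabolism was described in the same fit, of which 61 were tested. Of these, 13 were lower and 7 higher in circSRY KO (15.0% and 20.0% of all genes), with a median log2 fold change of -0.34. Without control replicate 2, 3 of them were lower and 2 higher, where 5.01% of all genes were called lower and 6.48% higher, so the larger share of lower genes in this set was not seen without that library. With limma on log2(TPM + 1), 15 of them were lower and 4 higher, where 15.9% of all genes were called lower and 12.5% higher.

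Among 13 further genes of the core machinery, 4 were lower and 1 was higher, where 15.0% of all genes were called lower and 20.0% higher. Cpsf7, an alternative larger subunit of CFIm that can take the place of Cpsf6, had a larger fitted fall than any of the 10 factors, with 83.8 and 59.6 TPM in the control libraries against 7.42 and 16.9 TPM in the circSRY KO ones (log2 fold change -2.28, standard error 0.331, adjusted p = 0.000228). Papolg, which encodes another nuclear poly(A) polymerase, had 20.0 and 13.8 TPM in the control libraries against 2.97 and 3.24 TPM in the circSRY KO ones (-2.21, adjusted p = 0.00035). The larger subunits of CFIm, Cpsf6 and Cpsf7, were thus both lower, and Nudt21, the subunit they bind, did not pass the test. The zinc finger gene Cpsf4l, a paralog of Cpsf4, was the higher gene, with 15.7 and 18.6 TPM in the control libraries against 39.0 and 58.6 TPM in the circSRY KO ones (1.77, adjusted p = 0.00125). Cpsf4 itself, with Ssu72 the remaining lower genes, had 48.1 and 47.7 TPM in the control libraries against 19.7 and 15.9 TPM in the circSRY KO ones. The nuclear poly(A)-binding protein gene Pabpn1 had 280 to 320 TPM in control and 267 to 341 TPM in circSRY KO and was not called.

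Of 4 termination genes 3 were lower. The counts in this paragraph are small and are to be read against the 15.0% of all genes called lower. Scaf8, which binds the tail of RNA polymerase II, had 26.8 and 20.7 TPM in the control libraries against 5.13 and 13.5 TPM in the circSRY KO ones (log2 fold change -1.41, adjusted p = 0.00418). Of 4 genes of histone mRNA 3′ ends, Zfp473 was lower (-1.64, adjusted p = 0.00792), with 5.83 to 6.28 TPM in control. Scaf8 and Zfp473 were not called without control replicate 2 (adjusted p = 0.0957 and 0.0519), nor was Cpsf4l (0.0729).

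Among the genes that act on tails after they are made, the counts per role were small and are to be read against the 20.0% of all genes called higher and the 15.0% called lower. Of 11 genes of other nucleotidyltransferases, the poly(A) polymerase genes Tent5d and Tent5c were higher and none was lower. X-linked Tent5d had 6.25 and 9.39 TPM in the control libraries against 22.0 and 32.3 TPM in the circSRY KO ones (log2 fold change 2.05, adjusted p = 0.000463), and Tent5c had 59.4 and 80.5 TPM in the control libraries against 131 and 217 TPM in the circSRY KO ones (1.44, adjusted p = 0.00629). Of the CPEB genes, whose proteins bind the cytoplasmic polyadenylation element of stored mRNAs, Cpeb3 was higher (1.93, adjusted p = 0.000424) and Cpeb1 was lower (-1.25, adjusted p = 0.0102). Of 5 tested genes of cytoplasmic poly(A)-binding proteins only Pabpc1l was called, at 1.54 to 2.06 TPM in control and 4.40 to 4.46 TPM in circSRY KO (1.69, adjusted p = 0.0304), a call that held in 5 of 12 alternatives and was lost with DESeq2 (adjusted p = 0.14), while the abundant Pabpc1 had 2280 and 2360 TPM in the control libraries against 1920 and 2150 TPM in the circSRY KO ones. Of 20 genes of deadenylation, which removes the tail, 4 were lower, among them Pan2 (-1.31, adjusted p = 0.00487) and Cnot3 (-1.30, adjusted p = 0.00612), and 2 were higher, Btg4 (1.15, adjusted p = 0.024) and Btg2 (1.17, adjusted p = 0.0499). With the transcript length offset neither Cnot3 (-0.78, adjusted p = 0.158) nor Btg4 (1.10, adjusted p = 0.0533) was called. The same held with limma on log2(TPM + 1), for Cnot3 (-0.97, adjusted p = 0.0736) and for Btg4 (0.86, adjusted p = 0.0878). Btg2 overlapped between the groups, with 3.97 to 5.64 TPM in control and 5.58 to 11.8 TPM in circSRY KO, and had a log2 fold change of 0.30 without circSRY KO replicate 1. Without control replicate 2, the adjusted p was 0.161 for Tent5c, 0.183 for Cpeb1, 0.298 for Pabpc1l, 0.109 for Pan2, 0.17 for Cnot3, 0.307 for Btg4 and 0.141 for Btg2, so these genes were not called, while Tent5d (0.0347) and Cpeb3 (0.0199) were.

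**Figure D5:**
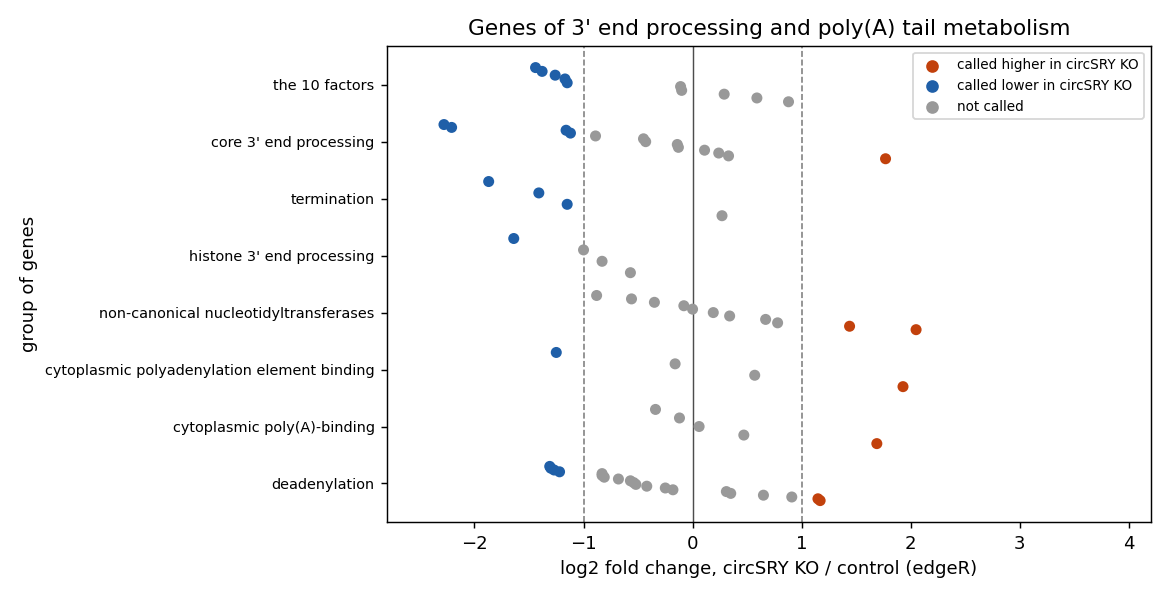
Log2 fold change between circSRY KO and control (edgeR) for the 10 factors and for 61 other tested genes by role, 1 point per gene, colored by call, with dashed lines at a size of 1. Of the 10 factors 5 are called lower, and of the other genes 13 are called lower and 7 higher.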

How the data were processed

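Samples were grouped by their labels into control and circSRY KO. The authors aligned reads of TruSeq libraries, which do not mark the strand, to GRCm39 with STAR 2.7.0f and quantified them per gene with RSEM 1.3.2. The processing notes also list mm9. For the gene annotation, the release was not given in the sources used here. RSEM estimates before normalization make up the deposited expected counts. The deposited TPM are scaled by transcript length to a fixed sum in each library, and the deposited FPKM by length and library size. The 4 columns of a further TPM sheet were not used. The authors' tables of their own edgeR 3.28.1 comparison (fold changes, p-values) were not used.

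Counts were rounded, kept by filterByExpr, scaled by TMM and tested with edgeR 4.0.16 in R 4.3.3, with Benjamini-Hochberg adjustment over all 17766 genes. The thresholds were those of the study's methods. The standard error of each gene was derived from its F statistic. The common dispersion was 0.0685. The fit was run on simulated data with the same dispersion for every gene and as many raised as lowered genes. That run checks the code only and not the calls, since the spread between replicates differed between the groups here. Effective length was computed as count divided by FPKM and by the library total. Alternatives used limma 3.58.1, DESeq2 1.42.0, other scalings, no filter, each library left out and, added after the data were seen, a transcript length offset. Depth of 3 counts equals 0.339 to 0.373 CPM (counting error only). The members and the gene lists were chosen with earlier results of these data known. Named pathway genes are up to 2 called genes per role and direction by adjusted p, of which 1 is not reported here. Cpsf4, Ssu72, Pabpn1 and Pabpc1 were named after their values were seen. Gene positions are from GENCODE M39.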

Additional observations from a re-analysis of the deposited data

How the results depend on the processing

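Over 25 named genes and 12 alternatives each, 245 of 300 values kept direction and call, 45 kept direction and lost the call, 1 gained it (Papolb with upper-quartile scaling) and 9 changed sign, all of genes that were not called. The 9 were Cstf1 with limma on log2(TPM + 1) and log2(TPM + 0.1) (-0.16 for each), Nudt21 with upper-quartile scaling (0.12), limma (0.01 for each pseudocount), the length offset (0.27) and without circSRY KO replicate 2 (0.24, the highest of -0.55 to 0.24 with 1 library left out), and Papola with upper-quartile scaling (0.09) and without circSRY KO replicate 1 (0.07, the highest of -0.35 to 0.07). The lower members numbered 3 in place of 5 with upper-quartile scaling, limma at either pseudocount and the length offset, and these were Cstf2t, Fip1l1 and Cpsf6 each time. Of all genes, 11.0% were called lower with upper-quartile scaling and 13.8% with the length offset, in place of 15.0%. With limma 15.9% were called lower at a pseudocount of 1 and 15.4% at 0.1. Leaving out 1 library gave 0 to 5 lower members. The higher members numbered 1 with upper-quartile scaling in place of 0, where 24.8% of all genes were called higher in place of 20.0%. Over all genes, limma called 2219 and 2117 genes higher at pseudocounts of 1 and 0.1, in place of 3551. Leaving out 1 library gave 1232 to 4127 higher and 952 to 3368 lower genes. The share of calls that were higher was 57.1%, against 69.2% under upper-quartile scaling and 43.9% under limma with a pseudocount of 1. In the wider pathway limma called 4 genes higher at either pseudocount in place of 7, and leaving out 1 library gave 2 to 8 higher and 3 to 15 lower. The cause of these differences was not tested. No paired analysis was made because the labels name no pairs of libraries. A call lost without 1 library also reflects the fewer samples left.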
